A study of Mus musculus with 9 samples.

Results

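Spp1, Gpnmb, Trem2 and Cd63, genes of the macrophages that gather in fibrotic tissue, were followed across 9 mouse lungs on Affymetrix whole-transcript arrays. They are 4 of the 1908 genes that carry a symbol in the authors' deposited tables of the 3 comparisons, which list 2129 of the 41345 probe sets on the array. Each symbol belonged to 1 probe set, and the log2 signals of these probe sets were taken from the table of all arrays. The lungs were whole tissue from male C57BL/6J mice in 3 groups of 3. At 8 weeks of age the trachea was instilled with PBS or with bleomycin at 2 U/kg, a DNA-breaking antibiotic that causes lung fibrosis in rodents. From day 5 on, homoharringtonine at 0.545 mg/kg or its vehicle was injected into the peritoneum over 15 days, 2 times in each week, and mice were 11 weeks old when lungs were taken. Homoharringtonine is a plant alkaloid that blocks translation elongation. The groups were vehicle-treated mice, mice instilled with bleomycin, and mice given bleomycin and then homoharringtonine. No group received homoharringtonine without bleomycin, so the drug was measured only in injured lungs and at 1 time.

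After injury, monocytes enter the lung and mature into macrophages that take up debris and lipid and exchange signals with fibroblasts. A state of these cells with high SPP1, GPNMB, TREM2, CD9 and CD63 has been described in scarred lung and liver, and its genes encode secreted ligands, lipid receptors and lysosomal proteins. Spp1 encodes osteopontin, a secreted phosphoprotein that binds integrins and CD44. Gpnmb encodes a transmembrane glycoprotein of lysosomes and the cell surface. Trem2 encodes a lipid-sensing receptor that signals through the adaptor DAP12 (Tyrobp). Cd63 encodes a tetraspanin of late endosomes, lysosomes and exosomes, which also binds the protease inhibitor TIMP1. Cd63 is made by many cell types, and osteopontin also by epithelial and bone cells, so none of the 4 marks macrophages alone in whole lung.

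The coordinates are those of the authors' tables, on a build not given in the sources used here. Spp1 (gene 20750) lies on chromosome 5 from 104435111 to 104441053, read by 29 probes, and Gpnmb (gene 93695) on chromosome 6 from 49036518 to 49070929, read by 22 probes. Trem2 (gene 83433) lies on chromosome 17 from 48346401 to 48352273, with 19 probes, and Cd63 (gene 12512) on chromosome 10 from 128908919 to 128912822, with 25 probes. All 4 probe sets are of cross-hybridisation type 1 in those tables and lie on the plus strand, each over the body of its gene. RefSeq promoter windows of GRCm38.p6 matched all 4 genes. They are shown because the 4 genes had the same order of groups. Each stretch runs 5′ to 3′ on the plus strand from 150 bases before the start of transcription to 30 bases from it on. For Spp1, Gpnmb and Trem2 that start is the first base of the span given above. For Cd63 it is 128909345, inside the span that begins at 128908919, and no window at the beginning of that span was searched. Capitals mark matches, on either strand, to TGANTCA (the site of AP-1) or to GAGGAAG (the core of the site of PU.1, the myeloid lineage factor), which do not overlap here:
Spp1, chr5:104434961-104435140: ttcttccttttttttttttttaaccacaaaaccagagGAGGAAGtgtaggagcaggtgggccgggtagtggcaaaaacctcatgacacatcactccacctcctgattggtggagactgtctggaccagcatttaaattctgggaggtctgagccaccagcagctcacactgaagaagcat
Gpnmb, chr6:49036368-49036547: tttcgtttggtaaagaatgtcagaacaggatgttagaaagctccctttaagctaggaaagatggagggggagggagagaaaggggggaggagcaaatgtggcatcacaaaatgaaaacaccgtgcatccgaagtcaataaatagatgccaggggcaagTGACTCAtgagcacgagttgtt
Trem2, chr17:48346251-48346430: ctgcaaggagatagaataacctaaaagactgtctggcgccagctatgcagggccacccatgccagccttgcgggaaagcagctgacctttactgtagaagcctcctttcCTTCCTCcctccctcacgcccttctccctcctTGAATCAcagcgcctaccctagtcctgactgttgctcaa
Cd63, chr10:128909195-128909374: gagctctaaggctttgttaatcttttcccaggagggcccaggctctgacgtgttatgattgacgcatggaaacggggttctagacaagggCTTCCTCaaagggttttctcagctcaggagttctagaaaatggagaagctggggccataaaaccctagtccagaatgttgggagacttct

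The search covered the whole window of 300 bases, 250 before the start and 50 from it on. TGANTCA is a loose form of the AP-1 site, with any base in the middle. It was found in Gpnmb as TGACTCA, at bases 9 to 15 from the start on, and in Trem2 as TGAATCA, at bases 9 to 3 before it. It occurs in 7.81% of all 32817 windows. GAGGAAG or its reverse complement was found in Spp1, Trem2 and Cd63 and occurs in 13.6% of all windows. The match of Cd63 lies inside the span given for the gene. The E-box letters CACGTG and CATGTG, read by the MiT/TFE factors of lysosomal genes, were in none of the 4 windows. They occur in 7.15% and 14.2% of all windows, and CATGTG was searched on both strands. A second RefSeq start of Spp1, at 104436192, had no match to any of these motifs. A match shows only that the letters are present, and no binding was measured.

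The signals of all arrays had medians between 4.49 and 4.57, and no pair of arrays held identical values. The labels do not say that the lungs of a group were handled separately beyond being separate samples, so p-values measure the spread between these samples. With 3 arrays a group, the number of arrays limits the precision of every value. In bulk tissue a gene's signal depends both on how many cells of a type are present and on how much RNA each makes, and these cannot be told apart here.

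Bleomycin against vehicle asked how the injured lung differs from the control lung. All 4 genes were higher in every bleomycin lung than in every vehicle lung, by 2.83-fold for Cd63 up to 23.3-fold for Spp1. Symbols exist only where the authors' tables list a change, mostly in this comparison, so that all 4 genes changed here is part of how they were found and is given as a description. At an adjusted p under 0.05, 7.78% of the 41345 probe sets were called by limma, 3.37% higher and 4.42% lower with bleomycin. Among the 2129 listed probe sets these shares were 33.3% and 45.8%. Bleomycin arrays lay wholly above those of vehicle for 13.9%.

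Spp1 had log2 signals of 6.81, 6.74 and 7.07 in the vehicle lungs, 11.16, 11.95 and 11.14 in the bleomycin lungs, and 10.02, 10.05 and 10.58 in the lungs with bleomycin and homoharringtonine. The groups formed 3 separate levels, with the lowest bleomycin array 4.07 above the highest vehicle array and bleomycin replicate 2 above all others. The rise with bleomycin was 4.54 on the log2 scale (SE 0.24, limma adjusted p = 0.000224), rank 2 of all 41345 probe sets by size.

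Gpnmb had log2 signals of 5.97, 5.91 and 5.44 in vehicle lungs, 9.19, 9.24 and 8.48 in bleomycin lungs, and 7.73, 7.93 and 8.14 with homoharringtonine. Here bleomycin replicate 3 was the lowest of its group, and vehicle replicate 3 the lowest of its own. The rise with bleomycin was 3.20 (SE 0.23, limma adjusted p = 0.000681) on the log2 scale, 9.18-fold with a 95% interval of 6.38 to 13.2, and rank 9 by size.

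Trem2 had log2 signals of 5.31, 5.16 and 5.19 in vehicle lungs, 6.99, 7.06 and 6.71 in bleomycin lungs, and 6.34, 6.23 and 6.43 with homoharringtonine. It rose by 1.70 on the log2 scale with bleomycin (SE 0.12, limma adjusted p = 0.000626), a smaller change than those of Spp1 and Gpnmb but with a tighter spread. Cd63 had log2 signals of 7.69, 7.68 and 7.55 in vehicle lungs, 9.05, 9.25 and 9.13 in bleomycin lungs, and 8.66, 8.51 and 8.76 with homoharringtonine. Its groups had SDs of 0.08, 0.10 and 0.12, and it rose by 1.5 with bleomycin (SE 0.10, limma adjusted p = 0.000626). By size the rises of Trem2 and Cd63 had ranks 106 and 158, while by p they had ranks 13 and 14, next to Gpnmb at 20 and below Spp1 at 5.

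**Figure D1:**
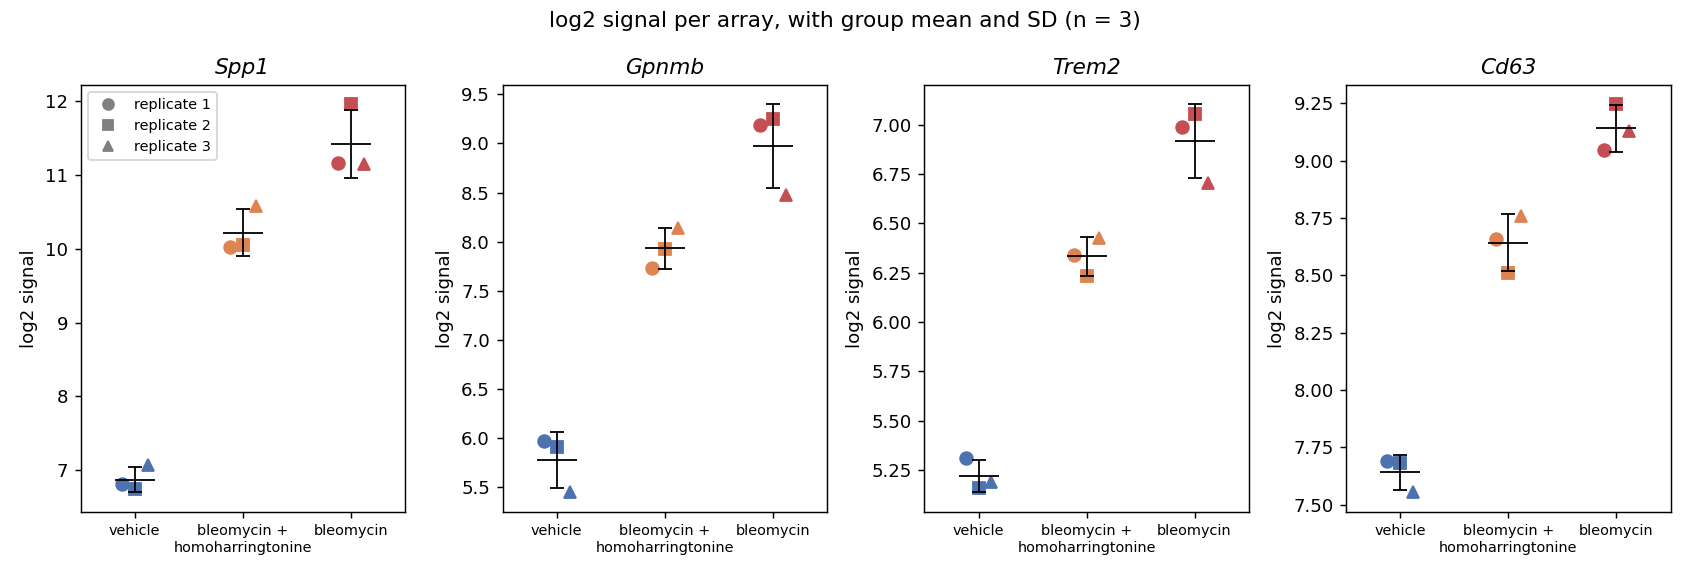
Log2 signal (y axis) of Spp1, Gpnmb, Trem2 and Cd63 on each of the 9 arrays, by group (x axis), with replicates 1 to 3 as circles, squares and triangles and black lines for the mean and SD (n = 3). In each gene the 3 groups form separate levels, vehicle lowest and bleomycin highest, and each panel has its own axis.

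Across the arrays of a group the 4 genes had some order in common. Bleomycin replicate 2 was the highest bleomycin array for all 4, and homoharringtonine replicate 3 the highest array of its group for all 4. Bleomycin replicate 3 was lowest for Spp1, Gpnmb and Trem2, and replicate 1 for Cd63. In the vehicle group there was no such order for Spp1, which was highest in replicate 3, where Gpnmb and Cd63 were lowest. The order was not particular to the 4 genes. Bleomycin replicate 2 and homoharringtonine replicate 3 were also highest in the mean signals of 3 lists described below. These were the other genes of the macrophage state, the markers shared by macrophages and the fibroblast markers. Neutrophil markers, resident alveolar macrophage markers and genes of monocyte recruitment were highest in bleomycin replicate 3 of their group. The share of all probe sets with this order was not counted.

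The lungs with bleomycin and homoharringtonine were then set against those with bleomycin to see the drug's effect after injury. For all 4 genes every lung with homoharringtonine lay below every bleomycin lung, but none of the 4 differences passed the test over the array. Spp1 had a mean log2 signal of 11.42 ± 0.47 (SD, n = 3) with bleomycin and 10.22 ± 0.32 (SD, n = 3) with homoharringtonine, a difference of -1.20 (95% interval -1.75 to -0.65, limma adjusted p = 0.118). The means of Gpnmb were 8.97 ± 0.43 and 7.93 ± 0.21 (SD, n = 3 each), a difference of -1.04 (95% interval -1.56 to -0.51, limma adjusted p = 0.14). For Trem2 the means were 6.92 ± 0.19 and 6.33 ± 0.10, a difference of -0.58 (95% interval -0.85 to -0.32, limma adjusted p = 0.114), and for Cd63 they were 9.14 ± 0.10 and 8.64 ± 0.12, a difference of -0.50 (95% interval -0.73 to -0.26, limma adjusted p = 0.123).

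As linear folds these are 2.3 for Spp1, 2.05 for Gpnmb, 1.5 for Trem2 and 1.41 for Cd63. All 4 had an unadjusted limma p under 0.05, between 0.000819 and 0.00164, as 11.1% of all probe sets did in either direction. By adjusted p limma called 0.0943% of the array between these groups, 0.0556% lower and 0.0387% higher with homoharringtonine, and 0 of the 4. The gap between the groups, from the lowest bleomycin array to the highest array with homoharringtonine, was 0.56 for Spp1, 0.34 for Gpnmb, 0.28 for Trem2 and 0.29 for Cd63. A lack of overlap in this direction was found for 7.79% of all probe sets (6.19% in the opposite direction), and for 59.6% of the 1392 that limma called higher with bleomycin. That last share and the values of the 4 genes rest on the same bleomycin arrays in both comparisons.

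The authors' deposited table for this comparison, made with a local pooled error (LPE) test that borrows the spread from probe sets of like signal, lists 116 probe sets, 66 of them lower with homoharringtonine. Spp1 is in the authors' deposited table at a fold of -2.3 with an adjusted p of 0.0385, and Gpnmb at -2.05 with an adjusted p of 0.0168. Trem2 and Cd63 are not listed there, and the smallest absolute fold in the authors' deposited table is 1.594, above the folds of both. The count for these 4 genes is therefore 2 in the authors' listing, which holds no fold under 1.594, and 0 by limma without a fold limit. Whether Trem2 and Cd63 passed the LPE test is not shown.

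Bleomycin plus homoharringtonine against vehicle asked how far the drug-treated injured lung still differed from the control. All 4 genes rose, where limma called 0.193% of the array higher and 5.46% of the probe sets that had risen with bleomycin alone. Among the 2129 listed probe sets 3.05% were called higher and 4.18% lower. Spp1 was 10.1-fold higher than in vehicle (95% interval 6.9 to 14.9, limma adjusted p = 0.00245), rank 1 of all probe sets by size. Gpnmb was 4.47-fold higher (95% interval 3.1 to 6.43, limma adjusted p = 0.0124), Trem2 2.17-fold (1.8 to 2.6, limma adjusted p = 0.0112) and Cd63 2-fold (1.7 to 2.36, limma adjusted p = 0.0106). The calls of Gpnmb, Trem2 and Cd63 were lost, with limma adjusted p between 0.0613 and 0.0742, when vehicle replicate 2, vehicle replicate 3 or homoharringtonine replicate 3 was left out, while their log2 differences stayed between 1.995 and 2.226, 1.069 and 1.1, and 0.944 and 1.022. Spp1 passed in all 9 such fits. The authors' deposited table for this comparison lists all 4, with Trem2 at an adjusted p of 0.0233 and Cd63 at 0.0422.

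**Figure D2:**
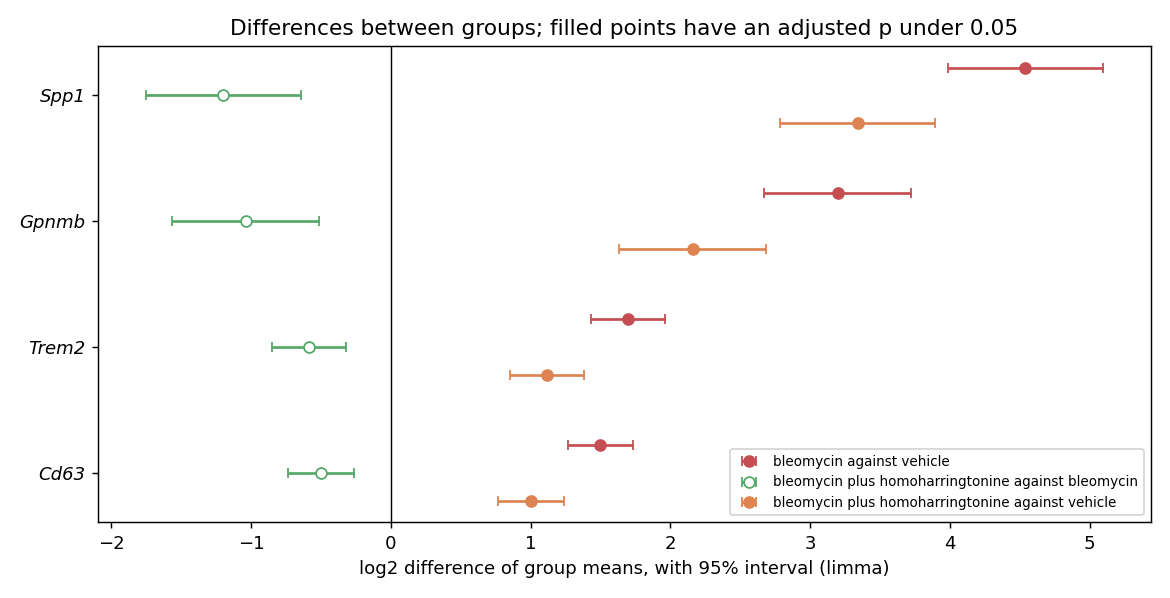
Log2 difference of group means (x axis) for each gene (y axis) in the 3 comparisons, with 95% intervals from limma; filled points have an adjusted p under 0.05. The intervals against vehicle lie above 0, and those of homoharringtonine against bleomycin lie below 0 with open points, from -1.20 for Spp1 to -0.50 for Cd63.

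The order vehicle, then homoharringtonine, then bleomycin with no overlap between any of the groups was found for 1.19% of all probe sets and for 30.7% of those called higher with bleomycin, and for all 4 genes. Set beside each other, the folds over vehicle were 23.3 and 10.1 for Spp1, 9.18 and 4.47 for Gpnmb, 3.25 and 2.17 for Trem2 and 2.83 and 2 for Cd63, without and with homoharringtonine. These pairs share the vehicle arrays. On the log2 scale the probe sets called higher with bleomycin had a median difference of 0.74 from vehicle, of -0.38 between homoharringtonine and bleomycin, and of 0.39 between homoharringtonine and vehicle. Over the whole array these medians were 0.02, 0.00 and 0.00.

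Of the 40 other genes in a list of the same macrophage state, 27 carry a symbol here. With bleomycin 26 of them rose and none fell by limma, with a median log2 change of 1.82. These genes too have a symbol because the authors listed them as changed, and 33.3% of all 2129 listed probe sets were called higher. The smallest p values were those of Lgmn, a lysosomal asparagine-specific protease (3.46-fold, limma adjusted p = 0.000519), Fn1 (fibronectin, 5.95-fold), the complement chains C1qb (6.05-fold) and C1qa (4.48-fold), the lysosomal protease Ctsl (2.52-fold) and the metalloproteinase Mmp19 (2.96-fold). Atp6v0d2, a subunit of the proton pump, was the 1 named gene that did not pass (1.9-fold, limma adjusted p = 0.059). Apoe, a lipid carrier and ligand of TREM2, rose 1.82-fold (limma adjusted p = 0.0399). Cd9, a tetraspanin named with CD63 in this state, has no symbol here and is not described.

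With homoharringtonine against bleomycin, 25 of the 27 had a lower mean, as did 94.7% of all probe sets called higher with bleomycin, and 1 passed the test. This was Lgmn, at a log2 difference of -0.89 (limma adjusted p = 0.046). The median difference was -0.74, against -0.38 for all probe sets higher with bleomycin, but the 27 genes had also risen more. The median rises with bleomycin were 1.82 for the 27 genes and 0.74 for all probe sets higher with bleomycin. The 2 with a higher mean, singled out after their values were seen, were the elastase Mmp12, with means of 7.98 ± 1.07 and 8.25 ± 0.35 (SD, n = 3 each), and the lectin receptor Clec4n, with means of 8.45 and 8.55. Neither difference passed, with limma adjusted p values of 0.877 and 0.947. Against vehicle 10 of the 27 were still higher by limma, among them Ctsk (a log2 difference of 2.01, limma adjusted p = 0.0308) and Ctsd (1.26, limma adjusted p = 0.0139), both lysosomal cathepsins. In 14 of the 27 the groups formed the same 3 separate levels as in the 4 genes.

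**Figure D3:**
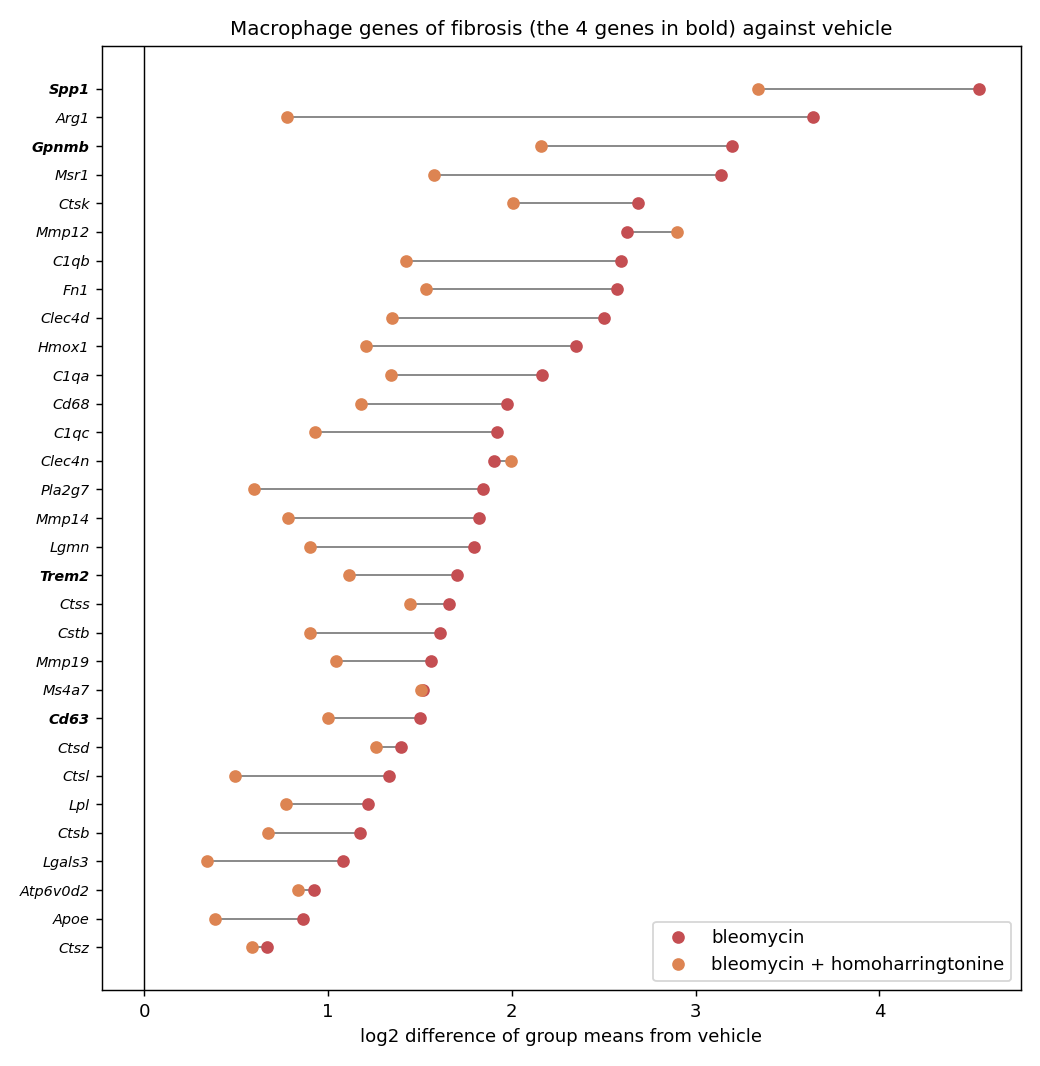
Log2 difference from the vehicle mean (x axis) of the 27 named genes of the macrophage list and, in bold, Spp1, Gpnmb, Trem2 and Cd63 (y axis), for bleomycin (red) and bleomycin plus homoharringtonine (orange). Spp1 has the largest value of these genes in both groups, and the homoharringtonine point lies left of the bleomycin point except for Mmp12 and Clec4n.

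Partners of the 4 proteins were counted from lists of the receptors, ligands and adaptors. Beside the counts of these lists, 33.3% of the 2129 listed probe sets were called higher with bleomycin and 45.8% lower. Of 17 osteopontin receptors and processing enzymes, 4 carry a symbol. Itgb3, the beta chain of the vitronectin receptor that binds osteopontin, rose 1.55-fold with bleomycin (limma adjusted p = 0.0112), with means of 6.79 ± 0.05 in vehicle and 7.42 ± 0.18 in bleomycin lungs. It was lower with homoharringtonine, at 6.55 ± 0.06 (SD, n = 3, limma adjusted p = 0.0448). Itgam, the alpha chain of the leukocyte integrin Mac-1, went the same way, up 3.16-fold with bleomycin and then lower by a log2 difference of -1.63 (limma adjusted p = 0.0316). Itga5, a fibronectin receptor chain that also binds osteopontin, rose 2.14-fold, and Itga8 fell 3.14-fold. In the lungs with homoharringtonine the log2 differences of Itgb3, Itgam, Itga5 and Itga8 from vehicle were -0.24, 0.03, 0.16 and -0.92, of which none passed (limma adjusted p = 0.327, 0.961, 0.709 and 0.0877), beside 3.34 for Spp1. The falls of Lgmn, Itgb3 and Itgam are among 39 calls on the array, and 0 probe sets were called when any 1 of the vehicle replicates, bleomycin replicate 2 or homoharringtonine replicate 1 or 2 was left out. Without bleomycin replicate 3 there was 1 call. The genes of CD44 and of the integrin chains Itgav and Itgb1 have no symbol here.

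Of 17 genes of TREM2 ligands and signalling, 3 carry a symbol and rose with bleomycin. Tyrobp, the adaptor through which TREM2 signals, rose 2.38-fold (limma adjusted p = 0.0245), with log2 signals from 6.26 to 6.44 in vehicle, 7.35 to 8.01 in bleomycin and 6.82 to 7.77 in homoharringtonine lungs. Unlike Trem2, its bleomycin and homoharringtonine arrays overlapped. Cd33, a sialic acid receptor that in human microglia counteracts TREM2, rose 1.92-fold (limma adjusted p = 0.0108), and Apoe is given above.

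Of 15 tetraspanins and partners of CD63, 3 carry a symbol. Timp1, a secreted inhibitor of metalloproteinases that binds CD63, rose 12.8-fold with bleomycin (limma adjusted p = 0.0022). Its log2 means were 4.19 ± 0.25, 7.88 ± 0.64 and 5.97 ± 0.75 (SD, n = 3 each) in vehicle, bleomycin and homoharringtonine lungs, with 3 levels that did not overlap. The tetraspanins Tspan18 and Tspan13 fell 3.82-fold and 3.27-fold with bleomycin, opposite to Cd63. Of 34 lysosomal genes of the network controlled by MiT/TFE factors, to which Gpnmb belongs, 12 carry a symbol. With bleomycin 11 rose, with a median log2 change of 0.94 over the 12, where 33.3% of all 2129 listed probe sets were called higher. Ctsd, Ctsh and Cd68 rose 2.64-fold, 2.68-fold and 3.93-fold. None of the 12 passed between homoharringtonine and bleomycin, where the median was -0.34. The factor genes Mitf and Tfec have no symbol here.

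Markers shared by macrophages rose with the 4 genes. Of 16 such genes 10 carry a symbol, 9 rose with bleomycin and 1 fell with homoharringtonine against bleomycin. The shares of all 2129 listed probe sets were 33.3% called higher with bleomycin and 0.939% called lower with homoharringtonine against bleomycin. The 1 that fell is Itgam, already given above among the osteopontin receptors. The lysosomal glycoprotein Cd68 rose 3.93-fold. Cd14 rose 2.03-fold, the mannose receptor Mrc1 2.37-fold and the Fc receptor subunit Fcer1g 2.08-fold. The mean log2 signal of the 10 ran from 6.14 to 6.22 in vehicle, 7.32 to 7.65 in bleomycin and 6.60 to 7.03 in homoharringtonine lungs, again in 3 separate levels. Relative to vehicle, this mean was 1.32 higher with bleomycin and 0.61 higher with homoharringtonine.

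After the values had been seen, the change of each of the 4 genes from the vehicle mean was set against the mean change of these 10 markers on the same array. All 4 changed more than the markers on every array with bleomycin, with or without homoharringtonine, Spp1 and Gpnmb by more than Trem2 and Cd63. The excess of Spp1 was 3.22 ± 0.35 (SD, n = 3) with bleomycin and 2.73 ± 0.13 (SD, n = 3) with homoharringtonine, and that of Gpnmb 1.88 ± 0.47 and 1.55 ± 0.17. For Gpnmb the 2 groups overlapped on this scale. The excess of Trem2 was 0.38 ± 0.24 with bleomycin and 0.51 ± 0.13 with homoharringtonine, with overlapping arrays. For Cd63 it was 0.18 ± 0.07 and 0.39 ± 0.11, where the highest bleomycin array was at 0.264 and the lowest homoharringtonine array at 0.265. For Trem2 and Cd63 the mean excess was thus higher with homoharringtonine than with bleomycin, the reverse of their signals. The markers did not move alike. Between homoharringtonine and bleomycin the log2 difference of Itgam was -1.63, and those of the other markers lay between -0.82 and -0.35. The median difference of the 10 markers, which depends less on Itgam than their mean, was -0.65. Those of Trem2 and Cd63 were -0.58 and -0.50, so the margin was smaller for Trem2. The excess was not taken without Itgam, and how far the reversal rests on that marker was not tested. No test was made, and the markers have symbols because they were listed as changed.

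**Figure D4:**
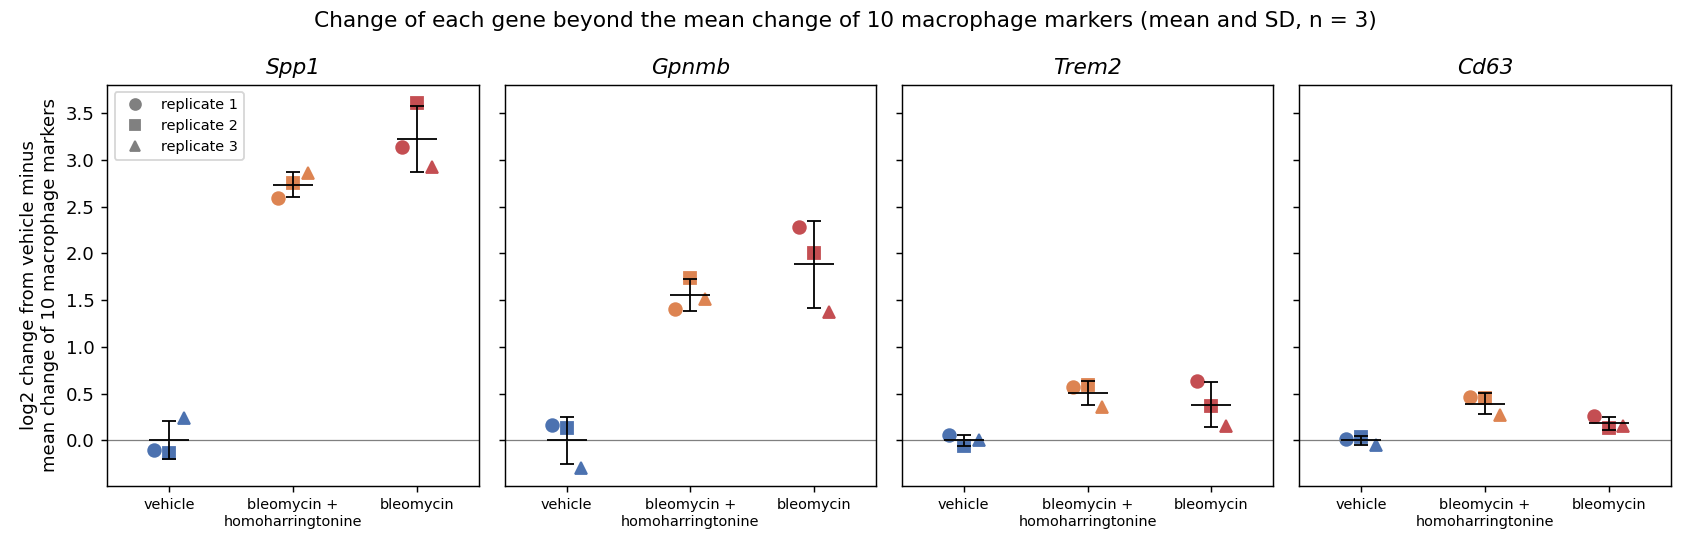
Log2 change of each gene from the vehicle mean minus the mean log2 change of 10 macrophage markers on the same array (y axis), by group (x axis), with replicates 1 to 3 as circles, squares and triangles and black lines for the mean and SD (n = 3). Spp1 and Gpnmb lie well above 0 in both groups with bleomycin, and Trem2 and Cd63 lie between 0.13 and 0.63.

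Markers of other cells moved as well, and their part in the values of the 4 genes was not tested. Array signals have no true 0, so none of the markers can be said to be absent. Symbols exist only for listed probe sets, of which 33.3% were called higher and 45.8% lower with bleomycin. Of 15 markers of resident alveolar macrophages 9 carry a symbol, and 2 rose and 4 fell with bleomycin. Their mean log2 signal ran from 7.03 to 7.21 in vehicle, 6.80 to 7.04 in bleomycin and 6.64 to 6.97 in homoharringtonine lungs, without the rise of the 4 genes. Of 14 genes of monocyte recruitment and growth 5 carry a symbol, 2 rose and 1 fell. The chemokines Ccl9 and Ccl2, which attract monocytes, rose 3.93-fold and 3.37-fold. That list ran from 5.00 to 5.36, 5.62 to 6.61 and 5.17 to 5.77 in the 3 groups in the same order.

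Of 13 neutrophil markers 6 carry a symbol and 3 rose, with means from 4.98 to 5.42 in vehicle, 5.95 to 7.55 in bleomycin and 5.24 to 5.54 in homoharringtonine lungs. Of 12 fibroblast and myofibroblast markers 8 carry a symbol, 5 rose and 1 fell, with means from 6.97 to 7.02, 7.71 to 8.19 and 7.31 to 7.77. Limma called 45.8% of all 2129 listed probe sets lower with bleomycin and 33.3% higher. All 4 named of 13 lung epithelium markers and 6 of 7 named of 8 endothelial markers fell with bleomycin. Their means ran from 10.69 to 10.80, 8.78 to 9.46 and 9.86 to 10.32 for epithelium, and from 8.95 to 9.03, 7.37 to 7.85 and 7.81 to 8.27 for endothelium. Other sources of Gpnmb and Spp1 were looked for. None of 7 melanocyte markers carries a symbol, and 2 of 9 bone cell markers do. These were Ctsk and Acp5 (2.58-fold), both of osteoclasts, which rose. Ctsk is also in the macrophage list above, so its rise does not tell bone cells from macrophages. The cell source of the rise of Acp5 was not tested. Of 8 mast cell and basophil markers 2 carry a symbol, and Hdc and Kit fell 2.32-fold and 2.56-fold.

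The named genes with the pattern most like each of the 4 were found by the root mean square difference over the 9 arrays of log2 signals, each gene centred on its own mean, among 1482 other genes. Trem2 and Cd63 lay close together, at 0.13, and Cd63 was the gene nearest to Trem2. The next nearest to Trem2 were Mmp19 (0.13) and the collagen prolyl hydroxylase subunit P4ha3 (0.16). Nearest to Cd63 were the secreted glycoprotein Fstl1 (0.11) and Mmp19 (0.12). The genes nearest to Gpnmb were Ctsk (0.31), C1qb (0.41) and Col1a1, a chain of fibrillar collagen (0.42).

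Spp1 had no close neighbour. Its nearest genes were the matrix glycoprotein Tnc (0.59), the acute-phase protein Saa3 (0.64) and Retnla, an effector of type 2 immunity (0.65), and Gpnmb stood at 0.67 from it. In the lungs with homoharringtonine Tnc and Retnla passed against vehicle, at log2 differences of 2.12 (limma adjusted p = 0.0359) and 2.88 (limma adjusted p = 0.00848), and Saa3 did not (2.73, limma adjusted p = 0.078). Between homoharringtonine and bleomycin the log2 differences of Tnc, Saa3 and Retnla were -1.67, -2.24 and -0.32, of which none passed (limma adjusted p = 0.1, 0.179 and 0.689), beside -1.20 for Spp1. The measure keeps the size of a change, so genes of large change have larger differences from any other gene.

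**Figure D5:**
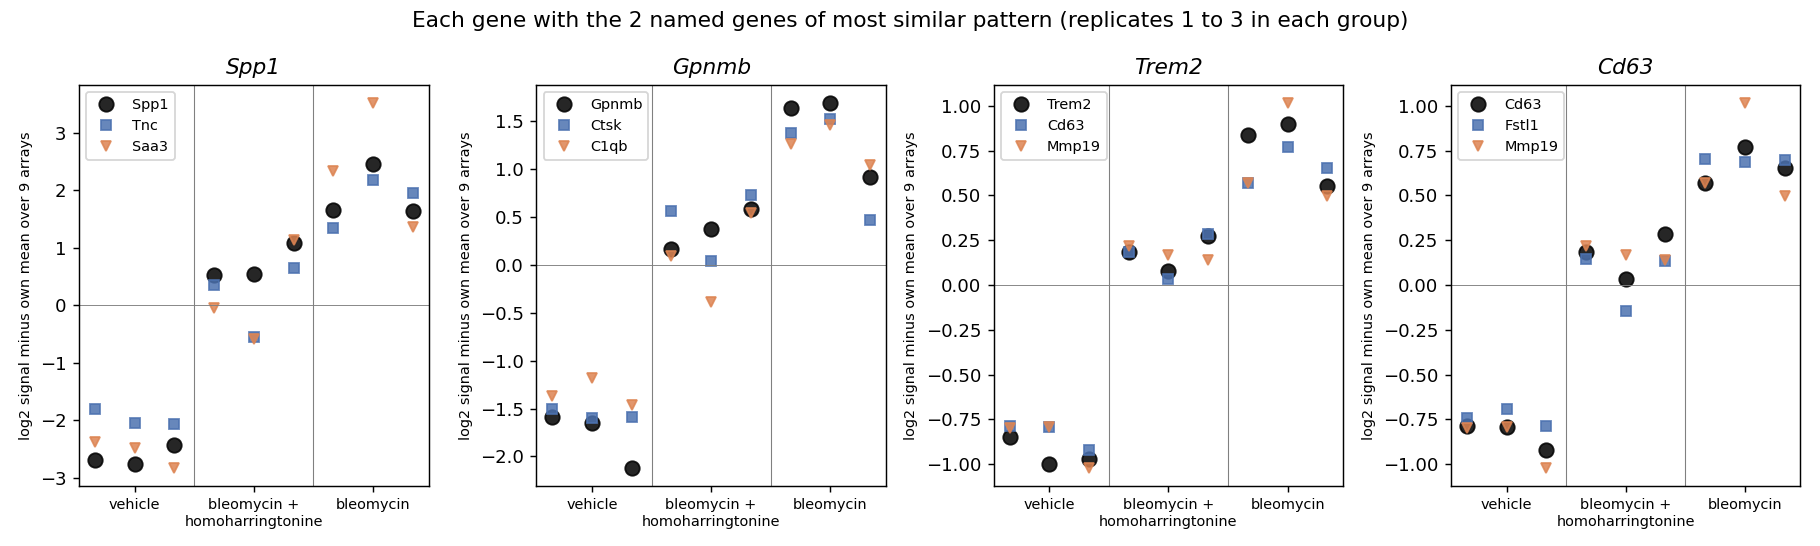
Log2 signal minus the gene's own mean over the 9 arrays (y axis) for Spp1, Gpnmb, Trem2 and Cd63 (black circles) and the 2 named genes nearest to each (coloured), with the arrays ordered by group and replicate (x axis). By root mean square, Trem2 and Cd63 differ from their neighbours by 0.11 to 0.13 and Spp1 from its own by 0.59 to 0.64, and each panel has its own axis.

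In the authors' deposited tables of KEGG pathways for bleomycin against vehicle, Spp1 was counted in 7 pathways, Cd63 in 2, Trem2 in 1 and Gpnmb in 0. Those of Spp1 included ECM-receptor interaction, at an FDR of 7.39e-18 in the authors' deposited table for bleomycin against vehicle. In the authors' deposited table for homoharringtonine against bleomycin that pathway had an FDR of 0.0174, with Spp1 among 4 listed genes, while the other 6 pathways with Spp1 had FDRs from 0.0554 to 1.0. Cd63 was counted among 23 listed genes of the lysosome (FDR 1.48e-09) and Trem2 among 22 of osteoclast differentiation (FDR 3.79e-09) in the authors' deposited tables for bleomycin against vehicle.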

How the data were processed

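Total RNA of whole lung was hybridised to Affymetrix arrays. R 3.5.1 and Affymetrix Power Tools are named in the submitters' processing notes, with normalization and genome build not given in the sources used here. As deposited by the authors, the values are log2 signals of 41345 probe sets, from 0.91 to 13.68, with no missing value. Per the file headers the comparison tables hold signed folds (a score here), adjusted p-values of an LPE test and symbols. They repeat 14904 of the deposited log2 values, of which 0 differed by over 1e-05.

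Group means were fitted to all 9 arrays with limma 3.58.1 in R 4.3.3 (6 residual and 2.66 prior degrees of freedom), with 2-sided tests and Benjamini-Hochberg adjustment over all 41345 probe sets at 0.05. An exact test of 3 against 3 arrays cannot go below 0.1 and was not used. The scripts were tested on simulated data. The members and 15 gene lists were chosen with earlier results of these data known. Of 226 list genes 93 had a symbol, and each was taken at its brightest probe set. The genes named in the text were the 4 members, up to 6 per list with the smallest p with bleomycin, the partners of the 4 proteins, and the 3 nearest to each member, of which 1 gene is not reported here. Genes named outside this rule are Atp6v0d2, Clec4n and Mmp12, exceptions in a count that were chosen after their values were seen. The replicate numbers are not said to mark shared animals or days, so no block was used in the main fit. Same-numbered arrays did not deviate together (correlations of -0.14 to 0.09 over 9 pairs), which with 3 arrays a group cannot exclude a pairing. Alternatives were leaving out each array, a replicate block, fits of only the 6 arrays compared, array weights, leaving out dim probe sets, median centring, quantile normalization, and a prior with trend and robust fitting.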

Additional observations from a re-analysis of the deposited data

How the results depend on the processing

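The rises of all 4 genes with bleomycin passed the limma threshold under every alternative run, with log2 changes of 4.272 to 4.679 for Spp1, 3.033 to 3.445 for Gpnmb, 1.631 to 1.805 for Trem2 and 1.447 to 1.547 for Cd63 when 1 array was left out. No alternative brought any of the 4 past it between homoharringtonine and bleomycin, where adjusted p ran from 0.0605 to 0.324 and all differences stayed below 0. Without 1 array they ran from -1.381 to -0.93 for Spp1, -1.285 to -0.902 for Gpnmb, -0.69 to -0.515 for Trem2 and -0.555 to -0.432 for Cd63. Against vehicle, homoharringtonine gave 3.159 to 3.44 for Spp1, which stayed called, and 1.995 to 2.262 for Gpnmb, 1.069 to 1.166 for Trem2 and 0.944 to 1.068 for Cd63, called in 6 of 9 such fits. The replicate numbers are not said to pair the samples. With them as a replicate block the differences were 2.16, 1.115 and 1.002, with limma adjusted p of 0.056, 0.0588 and 0.0632, and no longer called. The block uses up residual degrees of freedom, and it changed no other call of the 4.

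Counts over the array moved more. The 3218 calls for bleomycin against vehicle ran from 1136 to 3396 without 1 array. The 39 for homoharringtonine against bleomycin ran from 0 to 181 without 1 array, and were 16 with array weights, 175 without dim probe sets, 0 with the replicate block and 0 on the 6 arrays compared. The 209 for homoharringtonine against vehicle ran from 7 to 257 without 1 array, and were 385 with array weights, 653 without dim probe sets and 22 with the replicate block. Some alternatives used fewer arrays, left fewer degrees of freedom or tested fewer probe sets, and the cause of the shifts was not tested. Taking any probe set of a gene changed none of the counts over all lists, 80, 3 and 20.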
